A study of Mus musculus with 12 samples.

Results

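Mitochondrial ribosomes translate the few messages of the mitochondrial genome, all of which encode core subunits of the respiratory chain and ATP synthase. Their ribosomal RNAs are made in the organelle, but every one of their proteins is encoded in the nucleus, translated in the cytosol and imported. Most genes of the large subunit carry symbols beginning with Mrpl and most genes of the small subunit carry symbols beginning with Mrps. The zinc-finger protein YY1 binds many housekeeping promoters, often just downstream of the transcription start, and nuclear genes for mitochondrial proteins are among its known targets in other tissues.

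The genes described here are the protein-coding genes of GENCODE M21 on autosomes whose symbol begins with Mrpl or Mrps followed by a number. The rule found 78 of 20807 autosomal protein-coding genes, 49 Mrpl and 29 Mrps genes, on 17 of the 19 autosomes, and it used no measured value. A gene had a YY1 peak in a library when a peak lay within 3 kb of any of its annotated transcript starts, and each gene was represented by its widest peak. The symbols are not a perfect guide to the particle: the products of Mrps18a and Mrps30 are known from the large subunit, and Mrps36 is also known as a subunit of the 2-oxoglutarate dehydrogenase complex.

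YY1 chromatin immunoprecipitation was compared between lineage-negative (Lin−) bone marrow cells of mice lacking Xist (XistΔ/Δ) and of wild-type mice (WT), with 2 libraries per genotype. All mice were 3-month-old females of mixed 129Sv4/Jae x B6 background. XistΔ/Δ mice carried floxed Xist alleles (2lox) and a Vav-iCre transgene, which drives Cre recombinase from regulatory sequences of the blood-specific gene Vav1; whether the WT mice carried Cre is not given in the labels. Lin− cells are a mixture of stem and progenitor cells left after removal of mature lineages, so a change in binding per cell and a change in the mixture cannot be told apart. Peak lists hold no expression values, so the cell type could not be checked against its markers.

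Between 9553 and 18113 peaks were listed per library. Depth was 24.9 M tags in WT replicate 1, 50 M in WT replicate 2, 23.1 M in XistΔ/Δ replicate 1 and 59.5 M in XistΔ/Δ replicate 2 (M, mega). The replicate 2 libraries were thus the deeper ones in both genotypes. The Xist start was covered by 1 peak in each WT library, of 3083 and 3222 bp, and by none in either XistΔ/Δ library, as the labels require. The deposited score is the same for every peak, so peak width was the only measure of size. Peaks called close together were joined into regions by the authors, and a wide peak is a long stretch of joined signal.

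Almost every mitochondrial ribosomal protein gene had promoter YY1 binding. A peak was present at 71 of 78 genes (91%) in WT replicate 1, where 40.8% of all autosomal protein-coding genes had one. It was present at 76 genes (97.4%) in WT replicate 2, against 49% of all genes. In XistΔ/Δ replicate 1 it was present at 75 genes (96.2%), against 40.7%, and in XistΔ/Δ replicate 2 at all 78, against 50.3%. By subunit, 43 of 49 Mrpl genes (87.8%) and 26 of 29 Mrps genes (89.7%) had a peak in all 4 libraries.

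Over both subunits, 69 genes (88.5%) had a peak in all 4 libraries, against 37.1% of all autosomal protein-coding genes, and no member lacked a peak in every library, which 48.3% of all genes did. At all 69 genes, peaks of the 4 libraries overlapped at 1 common site by at least 1 bp, and at 57 of them the overlap reached 0.5 of the width of the widest peak. These overlaps were not counted over all genes. At Mrpl41 the common site lay upstream of its start, because XistΔ/Δ replicate 1 had a peak only there. The member peaks made up between 0.491% and 0.837% of a library's peaks. No test was run of the list against other genes. The background counts expressed and silent genes alike, since these files hold no expression.

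**Figure D1:**
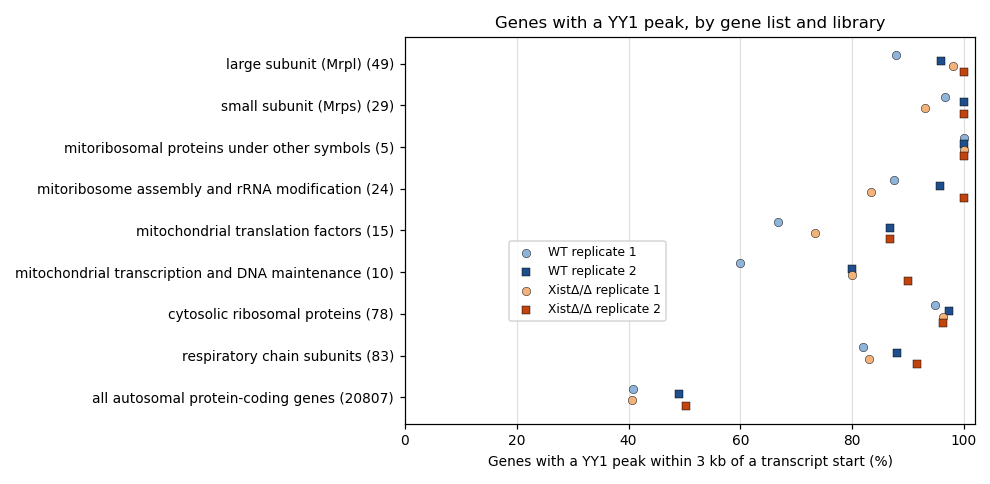
Share of genes with a YY1 peak within 3 kb of a transcript start (x axis, %), for each gene list (y axis, number of genes in parentheses) and each of the 4 libraries (colours and symbols). The Mrpl and Mrps genes lie between 87.8% and 100%, and all autosomal protein-coding genes between 40.7% and 50.3%.

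The neighbouring gene lists placed this share in context. Cytosolic ribosomal protein genes, which build the ribosomes of the cytosol, had a peak in all 4 libraries at 74 of 78 genes (94.9%), and 2 of them had none. Nuclear-encoded subunits of the respiratory chain, whose partners are the products that mitochondrial ribosomes make, had 4 peaks at 65 of 83 genes (78.3%), and 7 had none. These shares are given side by side and were not tested against each other. Mitoribosomal proteins under other symbols (Dap3, Ptcd3, Aurkaip1, Chchd1 and Gadd45gip1) had a peak in all 4 libraries at 5 of 5 genes.

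Genes that act on the mitochondrial ribosome, rather than in it, were counted in the same way. Of 24 genes of mitoribosome assembly and rRNA modification, 19 (79.2%) had a peak in all 4 libraries and none lacked one throughout. Of 15 mitochondrial translation factors, 10 had 4 peaks and 2 had none: Gfm1, a mitochondrial elongation factor G, and Mtfmt, which formylates the initiator methionyl-tRNA. Of 10 genes of mitochondrial transcription and DNA maintenance, 6 had 4 peaks and 1 had none, Mterf1a, of the family of mitochondrial termination factors. Tfam, which packages mitochondrial DNA, had peaks of 915 and 893 bp in WT against 805 and 970 bp in XistΔ/Δ, and Lrpprc, which stabilises mitochondrial messages, had peaks of 628 and 1458 bp in WT against 628 and 1602 bp in XistΔ/Δ.

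The letters of the YY1 motif were examined next. RefSeq promoters (GRCm38.p6, from 250 bases before to 50 bases after the start) were given for 69 of the 78 genes, not for Mrpl13, Mrpl15, Mrpl19, Mrpl38, Mrpl4, Mrpl54, Mrps28, Mrps34 and Mrps35. The motif was searched as AAGATGGC or ATGGCGGC on both strands. The 2 patterns share the letters ATGGC, and where they overlapped (AAGATGGCGGC) they were counted as 1 match. It was present in 19 of 69 promoters (27.5%), against 950 of 15687 autosomal protein-coding genes with a promoter in the table (6.06%). The share was 25.6% for Mrpl and 30.8% for Mrps genes, 17.2% for cytosolic ribosomal protein genes and 17.5% for respiratory chain genes. Of the 19 promoters, 16 had the letters between 100 bases before and 50 bases after the start. So did 9 of the 10 cytosolic ribosomal protein genes and all 11 respiratory chain genes with a match. A place near the start is thus not particular to this family. Strand and start codon were counted only against all genes.

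In 15 of the 19 promoters the letters read in the sense direction, and in 13 the ATG inside them was the annotated start codon of the gene itself. Over all genes with a match, this was so for 267 of 950 (28.1%), against 68.4% here. These 13 windows of up to 30 bases are shown because the finding rests on their letters. Each runs 5′ to 3′ on the strand of its gene, with the YY1 letters in capitals, and in each the ATG within the capitals is the start codon. Coordinates are GRCm38.p6, every match lies downstream of the RefSeq start, and each window crosses the start of the coding sequence.
Mrpl22, chromosome 11 from 58171675 to 58171704, plus strand: tagggctcagcATGGCGGCcgcactactgc
Mrpl27, chromosome 11 from 94653791 to 94653820, plus strand: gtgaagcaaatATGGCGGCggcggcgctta
Mrpl35, chromosome 6 from 71823741 to 71823770, minus strand: gcaggctgcAAGATGGCGGCttccatcttc
Mrpl49, chromosome 19 from 6057721 to 6057750, minus strand: gttgaggcgccAAGATGGCagcagcggtgt
Mrpl50, chromosome 4 from 49521035 to 49521064, minus strand: gcttgtcgagaATGGCGGCgctgatcgtgt
Mrpl53, chromosome 6 from 83109101 to 83109130, plus strand: tggaggtaaccATGGCGGCggctttggctc
Mrpl9, chromosome 3 from 94443340 to 94443369, plus strand: gctccgctgtcATGGCGGCctctgtggctc
Mrps18a, chromosome 17 from 46111006 to 46111035, plus strand: gtgcgttccAAGATGGCGGCcctcagggct
Mrps24, chromosome 11 from 5707652 to 5707676, minus strand: cgcgccggcccAAGATGGCgtggtc
Mrps27, chromosome 13 from 99344791 to 99344820, plus strand: gtgcgctccAAGATGGCGGCtcccatggtg
Mrps30, chromosome 13 from 118387216 to 118387245, minus strand: ggcgggcgaaaATGGCGGCggccaggtatt
Mrps5, chromosome 2 from 127587417 to 127587446, plus strand: ccggctccagcATGGCGGCggccgtacgcg
Mrps7, chromosome 11 from 115604147 to 115604176, plus strand: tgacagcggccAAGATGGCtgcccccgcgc

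In all 13 windows the letters ATGGC open the coding sequence, so the second codon begins with GC. This follows from the search, since both patterns hold ATGGC and the windows were picked by their start codon. Mrps27, which encodes an RNA-binding pentatricopeptide-repeat protein, and Mrps18a carry the same run of 11 letters (AAGATGGCGGC), as does Mrpl35. Mrpl37 and Mrpl42 also had sense matches within the first bases of the transcript, but their ATG was not an annotated start codon. The remaining 4 matches read antisense and lay upstream of the start, at Mrpl32, Mrpl36, Mrps11 and Mrps12; these 6 genes were named after their sequences were seen. The median centre of the matches lay 19.5 bp downstream of the RefSeq start, and 78.9% lay downstream, against 52.7% of matches over all genes. A match describes letters and is not a measured site.

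**Figure D2:**
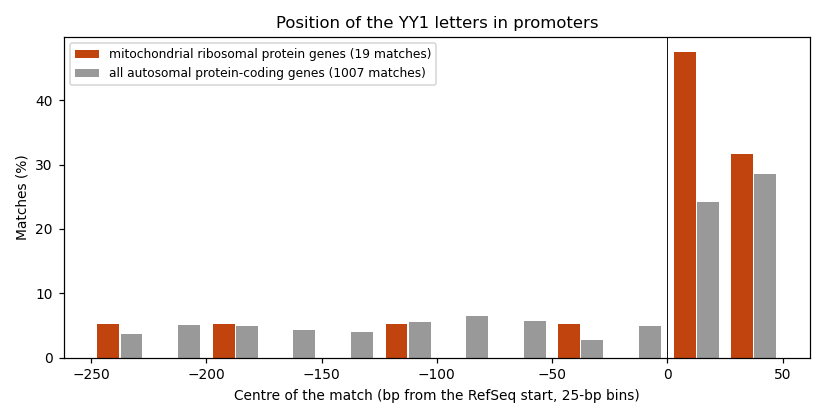
Position of the centre of each YY1 match relative to the RefSeq start (x axis, bp, bins of 25 bp) as a share of all matches (y axis, %), for the 19 matches at mitochondrial ribosomal protein genes and the 1007 matches at all autosomal protein-coding genes. Of the 19 matches, 15 lie in the first 50 bp of the transcript.

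The matches were then placed relative to the peaks. The searched window is close to the start and nearly all widest peaks cover a start, so most matches had to fall inside a peak, and the counts are a description. Of the 19 matches, 18 lay inside the gene's widest peak in WT replicate 1, 18 in WT replicate 2, 19 in XistΔ/Δ replicate 1 and 18 in XistΔ/Δ replicate 2. The 3 exceptions, Mrpl36 in both WT libraries and Mrpl22 in XistΔ/Δ replicate 2, had the match in another peak of the same gene. In XistΔ/Δ replicate 1, which had the narrowest peaks, 17 of 19 matches (89.5%) lay within 250 bp of the peak midpoint, with a median distance of 124 bp. In the other libraries the median distance was 210 to 227 bp.

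Windows of 500 bp around the midpoint of the widest peak were then read from the genome, again at genes with a promoter in the table. The YY1 letters were present in 20 of 62 member windows (32.3%) in WT replicate 1, 23 of 67 (34.3%) in WT replicate 2, 24 of 66 (36.4%) in XistΔ/Δ replicate 1 and 20 of 69 (29%) in XistΔ/Δ replicate 2. Over all genes with a peak the shares were 18.8%, 15%, 20.9% and 14.6%. In windows of the same size placed 1 kb to either side, the shares fell to between 3.79% and 5.22% at the members and between 3.53% and 3.91% over all genes. Genes without the letters still had peaks: of the 60 members with a peak in all 4 libraries and a promoter in the table, 41 had no match. Their median of the mean width percentile was 68.9, against 74.5 for the 19 with a match, and the ranges overlapped widely (26 to 99.8 and 54.8 to 94.9).

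Other promoter letters were counted in the same way. GCATGCGC, a form of the NRF1 motif, was present in 8 of 69 member promoters (11.6%) and in 4.14% of all promoters. NRF1 is a known activator of nuclear genes for mitochondrial proteins. CCGGAAGT, an ETS-family motif, was present in 12 (17.4%) and in 6.04% of all. GGGCGG, the core of the SP1 motif, was present in 34 (49.3%) and in 51.7% of all. The 5-letter YY1 core ATGGC alone was present in 42 (60.9%), against 42.5% of all promoters.

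The peaks sat on the transcript starts. Every member with a peak had one that covered an annotated start in WT replicate 1 (71 of 71), in WT replicate 2 (76 of 76) and in XistΔ/Δ replicate 2 (78 of 78), as did 74 of 75 in XistΔ/Δ replicate 1. The exception was Mrpl41. Over all genes with a peak the share was between 92.4% and 93.6%. The median midpoint lay slightly downstream of the nearest start, by 34 and 20.5 bp in WT against by 36.5 and 35.5 bp in XistΔ/Δ. The midpoint fell within 250 bp of a start at 54 of 71, 58 of 76, 69 of 75 and 60 of 78 genes in the same order.

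**Figure D3:**
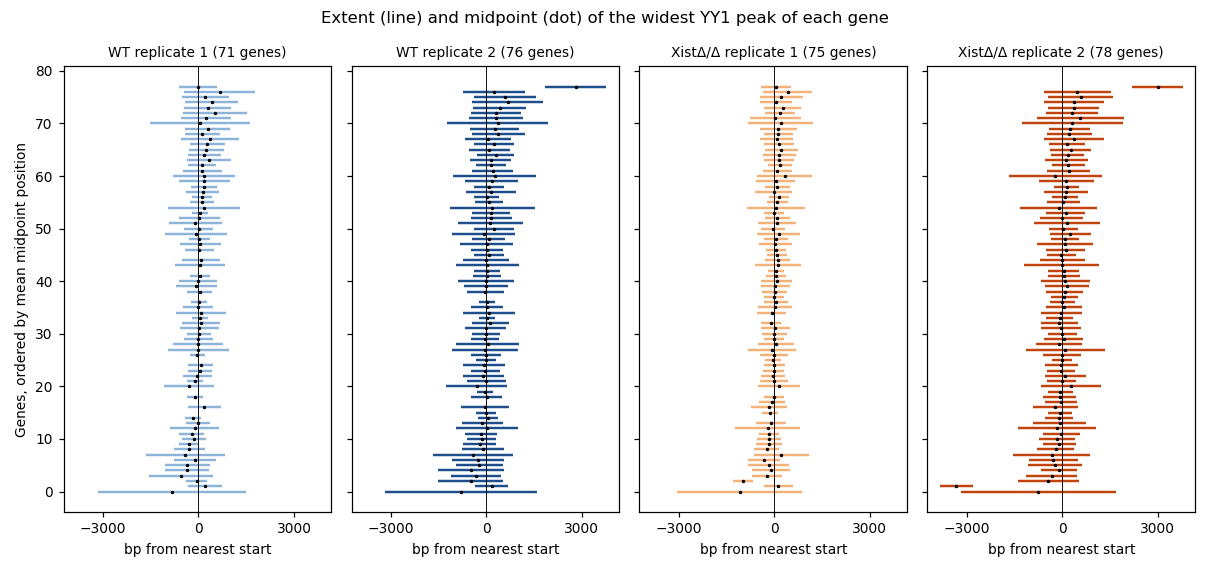
Extent (line) and midpoint (dot) of the widest YY1 peak of each gene relative to the nearest annotated start (x axis, bp, negative is upstream), with 1 row per gene in the same order in each panel and 1 panel per library. Nearly all peaks cross the start. Those that do not are Mrpl58 in both replicate 2 libraries (downstream), Mrpl22 in XistΔ/Δ replicate 2 and Mrpl41 in XistΔ/Δ replicate 1 (both upstream).

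Most of the genes with the midpoints farthest upstream had a neighbour's start under the same peak or beside it; Mrpl24 did not. The lowest mean position relative to the start was that of Mrps18b (-866 bp), followed by Mrpl22 (-708 bp), Mrpl41 (-493 bp), Mrps11 (-358 bp) and Mrpl24 (-264 bp). At Mrps18b, the peak ran over the start of Ppp1r10, a regulatory subunit of protein phosphatase 1 that is transcribed away from it, and the Ppp1r10 start was nearest to the midpoint in all 4 libraries. At Mrpl22 the start was covered by peaks of 1063, 1040, 897 and 885 bp in WT replicates 1 and 2 and XistΔ/Δ replicates 1 and 2. In XistΔ/Δ replicate 2 a second peak of 1062 bp at the start of Gemin5 was wider and took its place, which moved the mean midpoint.

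At Mrpl41, WT replicate 1 had separate peaks of 644 bp over the start and 501 bp upstream at Pnpla7. Both replicate 2 libraries had 1 joined peak of 2045 bp (WT) and 1924 bp (XistΔ/Δ), and XistΔ/Δ replicate 1 had only the upstream peak, of 627 bp. The midpoints farthest downstream were those of Mrpl58 (1455 bp), Mrps18a (446 bp), Mrpl35 (397 bp), Mrpl38 (375 bp) and Mrps9 (334 bp). Mrpl58 encodes a peptidyl-tRNA hydrolase of the large subunit that can release stalled chains. A start of it was covered in every library, by peaks of 1197 and 1420 bp in WT against 926 and 1167 bp in XistΔ/Δ, and the wider peaks of 1912 and 1590 bp in the replicate 2 libraries lay downstream and covered no start of it.

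Divergent promoters were frequent in this family. A protein-coding gene began on the opposite strand within 1 kb upstream at 29 of 78 members (37.2%), against 2350 of 20807 autosomal protein-coding genes (11.3%). These 29 genes had a peak in all 4 libraries at 28 genes (96.6%), and the other 49 at 41 (83.7%). The median of the mean width percentile over the genes with 4 peaks was 74.9 and 68.9, respectively. Between 40% and 45.1% of member peaks covered the starts of at least 2 protein-coding genes. At 10 members the start of another gene was nearest to the midpoint in every library, so those peaks cannot be assigned to the member alone. Apart from the share of divergent promoters, none of these counts was made over all genes. They are therefore not a result about this family.

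Several partners are themselves mitochondrial, and these were named after their values were seen. Mrpl46 and Mrps11, a large and a small subunit gene whose closest starts are 30 bp apart on chromosome 7, shared 1 peak in each library, of 2011 and 1573 bp in WT against 943 and 1618 bp in XistΔ/Δ. Mrps12, the decoding-centre protein, lies head to head with Sars2, the mitochondrial seryl-tRNA synthetase. Mrpl43 lies head to head with Twnk, the mitochondrial DNA helicase. Mrpl36 and Ndufs6, a complex I subunit, have starts 51 bp apart. The Mrpl36 peak at this pair was 1557 and 1890 bp in WT against 1174 and 1578 bp in XistΔ/Δ. A peak over another Mrpl36 start was 1448 and 1775 bp in WT against 1320 and 1888 bp in XistΔ/Δ, so the widest peak was at the pair in WT and at the other start in XistΔ/Δ. In addition, Mrpl47 shared its peak with the overlapping start of Ndufb5, another complex I subunit.

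The YY1 letters in the Mrps11 promoter are shown here because they lay inside the shared peak in all 4 libraries. They read antisense to Mrps11, and so AAGATGGCGGC on the strand of Mrpl46, whose own promoter window held no match. The window is on chromosome 7 from 78783012 to 78783041, plus strand, with the match in capitals.
Mrps11: cctacgggcGCCGCCATCTTtctgtcttcc

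Widths differed several-fold among the genes and ranked alike between libraries. Over the 69 genes with 4 peaks, the median width was 1197 bp in WT replicate 1 (range 501 to 4658 bp), 1393 bp in WT replicate 2 (501 to 4775 bp), 931 bp in XistΔ/Δ replicate 1 (626 to 3938 bp) and 1331 bp in XistΔ/Δ replicate 2 (769 to 4849 bp). Over the 7709 autosomal protein-coding genes with 4 peaks, the medians were 1062, 1514, 933 and 1482 bp. Across the 69 genes the rank correlation of width was 0.82 between the WT libraries, 0.74 between the XistΔ/Δ libraries, 0.81 between the replicate 1 libraries and 0.85 between the replicate 2 libraries. These describe agreement across genes, which are not independent replicates and here include genes that share a peak.

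**Figure D4:**
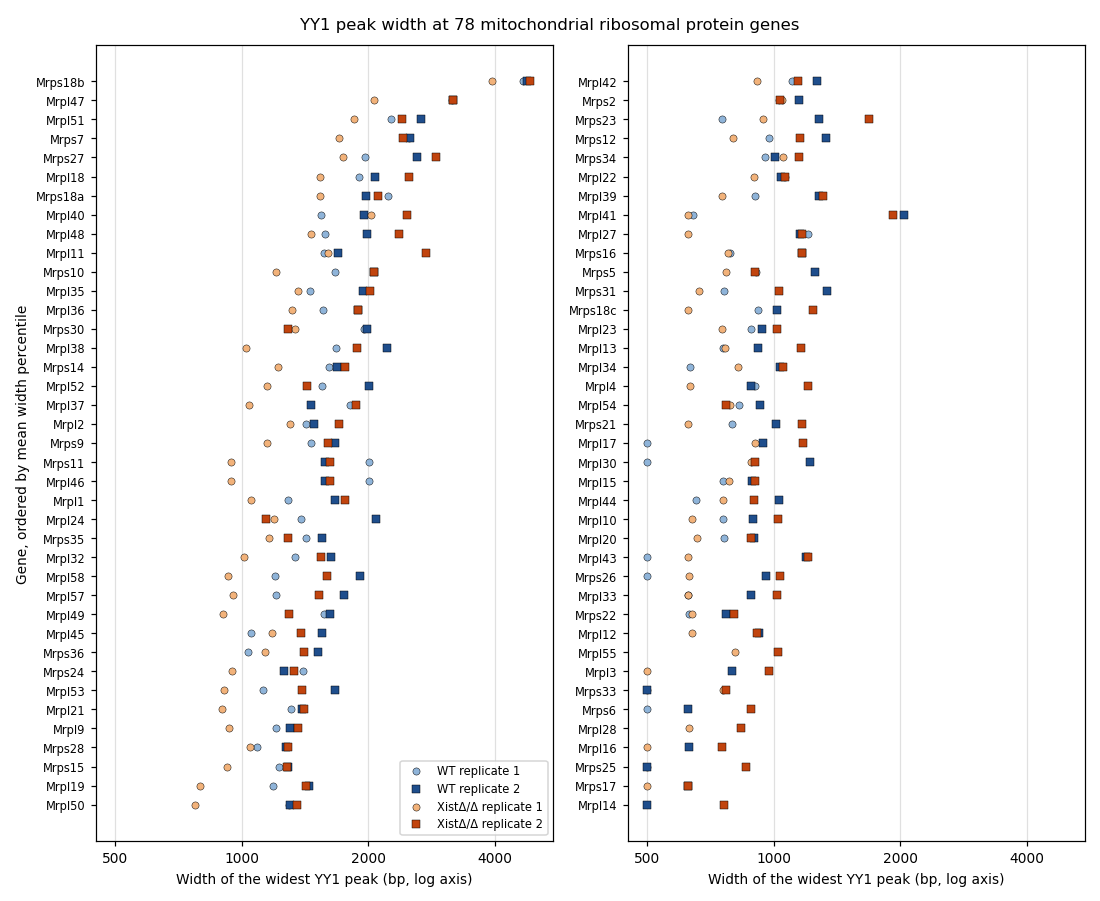
Width of the widest YY1 peak (x axis, bp, log axis) of each of the 78 genes (y axis, ordered by mean width percentile over the libraries), with 1 symbol per library; a missing symbol means no peak. Mrps18b stands at the wide end in all 4 libraries, at 3938 to 4849 bp, and genes at the foot of the right panel have peaks of down to 501 bp or lack some.

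The 10 genes with the widest peaks had mean width percentiles from 88.8 to 99.8, counted among all peaks of each library. Mrps18b (ENSMUSG00000024436.16), 1 of the mitochondrial paralogs of bacterial S18, had peaks of 4658 and 4775 bp in WT against 3938 and 4849 bp in XistΔ/Δ. In every library it was the widest peak of the family. The WT replicate 1 peak ran from 35914883 to 35919540 on chromosome 17 (mm10) and spanned the Mrps18b start and the Ppp1r10 start.

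Mrpl47, a protein near the exit of the nascent-chain tunnel, followed with 3165 and 3172 bp in WT against 2065 and 3175 bp in XistΔ/Δ. It is narrower in XistΔ/Δ replicate 1 than in the other 3 libraries, which lie within 10 bp of each other. Mrpl51 had peaks of 2265, 2673, 1845 and 2402 bp in WT replicates 1 and 2 and XistΔ/Δ replicates 1 and 2. Mrps7, a head protein of the small subunit and homologue of bacterial S7, had 2500, 2515, 1705 and 2413 bp in the same order, so both XistΔ/Δ peaks were below both WT peaks. Mrps27 had 1966, 2609, 1736 and 2900 bp.

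The other genes in this group were Mrpl18, Mrps18a, Mrpl40, Mrpl48 and Mrpl11, with widths between 1464 and 2745 bp. Mrpl18 shares its peak with Tcp1, a subunit of the cytosolic chaperonin, and Mrpl40 with Hira, a histone chaperone. Mrpl48 had 3 separate peaks in every library, over 3 different annotated starts. The narrowest was 501 bp (WT replicate 1) and the widest 2370 bp (XistΔ/Δ replicate 2), at the start shared with Rab6a.

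Xist deletion was compared over the 4 libraries. The number of genes with a peak was 71 and 76 in WT (mean 73.5 ± 3.54, SD, n = 2) and 75 and 78 in XistΔ/Δ (76.5 ± 2.12, SD, n = 2), a difference of 3 genes that was smaller than the spread of the libraries (exact permutation test, two-sided, p = 0.667). With 2 against 2 libraries this test cannot give a p-value below 0.333. Within replicate numbers the difference was 4 genes in replicate 1 and 2 genes in replicate 2. The replicate number is shared by libraries of like depth, and the file headers give each pair a common number whose meaning is not stated.

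The median width over the 69 genes was 1197 and 1393 bp in WT (1295 ± 139, SD, n = 2) and 931 and 1331 bp in XistΔ/Δ (1131 ± 283, SD, n = 2). The difference, XistΔ/Δ minus WT, was -164 bp (exact permutation test, two-sided, p = 0.667), with -266 bp in replicate 1 and -62 bp in replicate 2. Without XistΔ/Δ replicate 1 the sign turned, to 50 bp. That library had the narrowest of the 4 peaks at 49 of 69 genes (71%), and at 65.1% of all genes with 4 peaks. Both replicate 2 peaks were wider than both replicate 1 peaks at 49 genes (71%), against 84.6% of all genes with 4 peaks. The replicate 2 libraries are the deeper ones, and the part of depth in these widths was not tested.

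As a percentile among all peaks of its own library, the median width of the members was 70.7 and 72.6 in WT (71.7 ± 1.31, SD, n = 2) and 64.5 and 73.9 in XistΔ/Δ (69.2 ± 6.69, SD, n = 2), a difference of -2.44 (exact permutation test, two-sided, p = 1.000). The difference was -6.25 in replicate 1 and 1.37 in replicate 2, and without XistΔ/Δ replicate 1 it was 2.6. The median distance of the midpoint from the nearest start was 112 and 128 bp in WT (120.5 ± 11.3, SD, n = 2) and 94.5 and 129 bp in XistΔ/Δ (112 ± 24.4, SD, n = 2). This difference of -8.75 bp was smaller than the spread of the libraries (exact permutation test, two-sided, p = 1.000), and its values within replicates were -18 and 0.5 bp. Without XistΔ/Δ replicate 1 it was 0.5 bp.

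Gene by gene, widths moved in both directions. A wider peak in XistΔ/Δ in both replicate numbers was present at 12 of 69 genes (17.4%), against 15% of all genes with 4 peaks, and a narrower one at 25 genes (36.2%), against 35.1%. By width percentile among all peaks of a library, the balance turned: 21 genes (30.4%) were higher in both, against 35.6% of all genes, and 13 (18.8%) were lower in both, against 17.3%. These shares are near those of all genes and are not a result about this family. The direction of the majority depended on the scale in both. Over all genes with 4 peaks, the median difference in percentile, XistΔ/Δ minus WT, was 1.33 in replicate 1 and 1.61 in replicate 2. A difference thus remained on the percentile scale over all genes, and its cause was not tested.

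**Figure D5:**
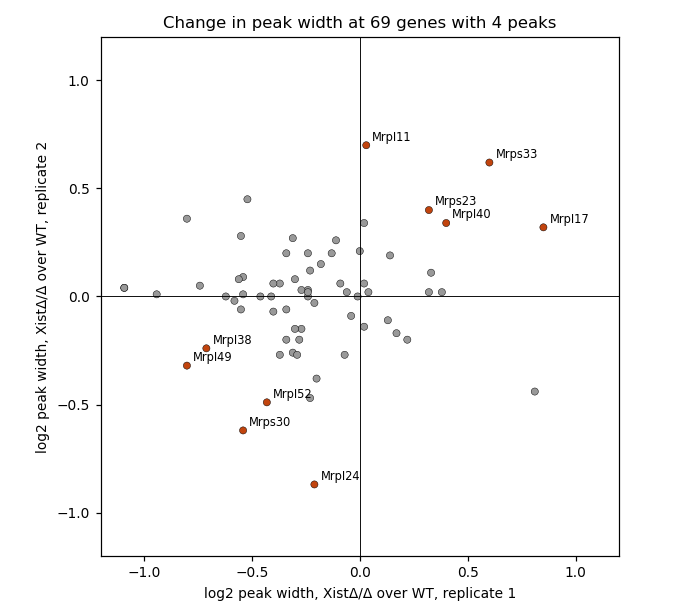
Log2 ratio of peak width, XistΔ/Δ over WT, in replicate 1 (x axis) and replicate 2 (y axis) for the 69 genes with 4 peaks (points). Coloured and labelled points are the 5 largest and 5 smallest mean ratios among genes with the same sign in both replicates; Mrps33 has 0.60 and 0.62 and Mrps30 has -0.54 and -0.62.

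Mrps33 had the largest increase in width. Its peaks were 501 bp in both WT libraries, the most frequent width in the lists, and 758 and 771 bp in XistΔ/Δ, a mean log2 ratio of 0.61. Mrpl17 had 501 and 942 bp in WT against 902 and 1173 bp in XistΔ/Δ (mean log2 ratio 0.58), so the groups overlapped. Mrpl40 had 1541 and 1955 bp in WT against 2030 and 2466 bp in XistΔ/Δ (0.37), with no overlap. Mrpl11, at the base of the stalk that binds translation factors, had 1572 and 1690 bp and 1607 and 2745 bp (0.37). Mrps23 had 755 and 1282 bp and 941 and 1687 bp (0.36), with overlap in both.

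Mrps30 had the largest decrease, from 1948 and 1984 bp in WT to 1340 and 1290 bp in XistΔ/Δ, a mean log2 ratio of -0.58 and no overlap. Mrpl49 had 1569 and 1619 bp in WT against 903 and 1298 bp in XistΔ/Δ (-0.56), again without overlap. It lies head to head with Fau, which encodes a cytosolic ribosomal protein fused to a ubiquitin-like protein. Mrpl24 had 1381 and 2080 bp and 1192 and 1142 bp (-0.54), and Mrpl52 had 1552 and 2004 bp and 1149 and 1427 bp (-0.46), both without overlap of the widest peaks. At Mrpl24, however, XistΔ/Δ replicate 2 had a second peak of 501 bp beside the one of 1142 bp. Their summed width of 1643 bp lay above the 1381 bp of WT replicate 1, so by summed width the groups overlapped. Mrpl38 had 1677 and 2218 bp and 1026 and 1876 bp (-0.48), with overlap.

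Both XistΔ/Δ peaks were wider than both WT peaks at 3 genes (4.35%), against 1.39% of all genes with 4 peaks: Mrpl40, Mrps33 and Mrps34. Both were narrower at 8 genes (11.6%), against 6.38%: Mrpl24, Mrpl49, Mrpl52, Mrpl54, Mrps30, Mrps35, Mrps5 and Mrps7. These calls rest on the widest peak, and for Mrpl24 and Mrps34 the call does not hold by summed width. At Mrps34 the summed widths were 1582 and 1767 bp in WT against 1552 and 2045 bp in XistΔ/Δ. Mrps34, Mrpl54, Mrps35 and Mrps5 were named after their values were seen. No single gene can be called with 2 libraries per genotype.

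Presence differed between genotypes at 2 genes. Mrpl28 (ENSMUSG00000024181.9), a large subunit protein with a bacterial homologue, and Mrpl55 (ENSMUSG00000036860.14), a large subunit protein without one, had a peak in both XistΔ/Δ libraries and in neither WT library. This pattern was found at 43 of all 20807 genes (0.207%). No member had the opposite pattern, which 0.0721% of all genes had. The Mrpl28 peaks were 630 and 835 bp wide, on chromosome 17 from 26123391 to 26124020 and from 26123189 to 26124023 (mm10), at percentiles 30.8 and 47. The nearest WT peaks were 9.64 and 9.52 kb from a Mrpl28 start.

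The Mrpl55 peaks were 810 and 1022 bp wide, on chromosome 11 from 59202011 to 59202820 and from 59201933 to 59202954, at percentiles 55.1 and 58.6. The nearest WT peaks were 10.4 and 5.61 kb from a Mrpl55 start. When every list was cut to its first 9553 peaks in deposited order, Mrpl55 kept its peaks in both XistΔ/Δ libraries, but Mrpl28 lost its peak in XistΔ/Δ replicate 2. A missing peak means that the tags did not reach the calling threshold of that library, not that YY1 was absent.

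The other absences were in 1 library or in both replicate 1 libraries. Mrpl14, a large subunit protein homologous to bacterial L14, had a peak in the replicate 2 libraries alone (501 bp in WT against 760 bp in XistΔ/Δ), a pattern of 4.3% of all genes. Only WT replicate 1 lacked a peak at Mrpl12, Mrpl16, Mrpl3 and Mrps17, a pattern of 3.22% of all genes. Only XistΔ/Δ replicate 1 lacked one at Mrps25 and Mrps6, as it did at 3.25% of all genes. These 7 genes were named after their values were seen. Their peaks elsewhere were narrow, between 501 and 975 bp. Mrpl12 encodes the stalk protein that recruits translation factors and Mrpl3 a protein near the peptidyl transferase centre.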

How the data were processed

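YY1 ChIP-seq peak lists of 4 libraries were used; the 8 histone mark samples of the 12 were not analysed here. The authors trimmed reads with Trim Galore, aligned them to mm10 with Bowtie2 2.3.5.1, removed reads of mapping quality under 30 with SAMtools 1.10 and duplicates, and called peaks per library with HOMER 4.9.1 findPeaks (regions built from 500 bp peaks, false discovery rate 0.001, 4 fold over the surroundings, no input library named). The tag threshold was set per library, so presence depends on depth. The deposited positions (start and end of each peak) were used. The deposited score is 1 for every peak and was not used. Depth in tags and tag thresholds came from the file headers, whose replicate numbers differ from the labels; the labels were followed.

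Transcript starts were those of GENCODE M21. Widths were turned into percentiles among all peaks of the library. Library values were compared with two-sided exact permutation tests (Python 3.11.15, numpy 2.4.6, pandas 2.3.3), and sequences were read with pysam 0.24.0. The code was tested on simulated data. The study calls its replicates biological; the labels do not name the animals, and p-values measure the spread between these libraries.

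The members, lists and tests were chosen with earlier results of these data known. Named were the 10 widest genes by mean percentile, genes with peaks in 1 genotype or none, the 5 largest and 5 smallest mean log2 width ratios of 1 sign, the 5 midpoints farthest upstream and the 5 farthest downstream, up to 10 genes by symbol with the motif on a start codon, and other mitochondrial genes without a peak. Any further gene or neighbour was named after its values were seen. Alternatives were the distance (1 kb), protein_coding transcripts, lists of equal length, peaks above the most frequent width, summed widths, shared sites, another percentile base, motif windows, each library left out and a replicate block.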

Additional observations from a re-analysis of the deposited data

How the results depend on the processing

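Among the alternatives run, the number of genes with a peak, the median width, the percentile and the midpoint distance kept their sign except without XistΔ/Δ replicate 1, where the last 3 turned to 50 bp, 2.6 and 0.5 bp; the cause was not tested. With 1 library left out, the difference in genes with a peak ran from 0.5 to 5.5, in width from -364 to 50 bp, in percentile from -7.18 to 2.6 and in distance from -26 to 0.5 bp. Genes wider in both replicate numbers ran from 17 to 41, and narrower ones from 30 to 52, since 1 pair remained. With peaks above the most frequent width alone, the differences were 6.5 genes, -5.37 in percentile and -2.5 bp in distance, and 8 genes were wider. The distance differed by -14 bp with peaks within 1 kb and by -19 bp with starts of protein_coding transcripts. With lists of equal length the percentile differed by -6.28, and 1 gene, Mrpl14, had no peak. By percentile, chosen after seeing the data, 21 genes were higher and 13 lower. The 5-letter core was in 42 promoters, being shorter.

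With the replicate block the differences were 3 genes (exact sign-flip p = 0.5), -164 bp (p = 0.5), -2.44 (p = 1.000) and -8.75 bp (p = 1.000); 2 pairs cannot give a p-value below 0.5. The labels share only a number: deviations of same-numbered libraries in percentile correlated at 0.310 across 7709 genes and 0.311 across 69 members, and the pairs also share depth.

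Without counts per peak, differences in binding strength at equal width could not be seen.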
